A study of Homo sapiens with 12 samples.

Results

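RNA carried by many ribosomes was compared with RNA carried by a single ribosome in WT MCF10A, a line of mammary epithelial cells of human origin that does not form tumours. The comparison used the 2 libraries labelled polyribosomal (poly) and the 2 labelled mono in the WT genotype, which are 4 of the 12 libraries of the series, chosen by their labels alone. The other 8 are the WT free fraction and the free, mono and poly fractions of CBFB_KO cells, a line made by CRISPR from a single-cell colony. CBFB, a partner of the RUNX transcription factors, was targeted only in that line. All cells had been treated with 100 µg/ml cycloheximide, which stops elongation, for 30 min at 37 °C before lysis, and lysates were separated on 10 to 50% sucrose gradients. The poly fraction is pooled, so it gives no count of ribosomes per mRNA, and the labels do not say whether replicates 1 and 2 were separate cultures, so p-values measure the spread between these libraries.

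A sucrose gradient separates mRNAs by the ribosomes bound to them. An mRNA that is initiated often, and whose coding sequence takes long to traverse, carries many ribosomes at once and sediments in the poly fraction. An mRNA with a short coding sequence, or one that is initiated rarely, is found more often with a single ribosome, and RNAs or particles of similar mass also sediment there. The poly to mono ratio is used in this field as a readout of ribosome load, and the mRNAs of ribosomal proteins, which begin with a pyrimidine tract at the cap (TOP mRNAs), are a known class whose load is regulated as a group.

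The 2 fractions differed in make-up as a whole. The mono libraries held 59798318 and 51910532 counts and the poly libraries 63886726 and 50451339 counts. Cytosolic ribosomal protein mRNAs took 30.7% and 35.4% of the counts in the mono libraries and 16.7% and 15.9% in the poly libraries. Mitochondrially encoded RNAs took 4.2% and 8.08% of the mono counts against 1.26% and 1.39% of the poly counts. The mean effective transcript length, weighted by TPM, was 595 and 532 bases in mono and 872 and 897 bases in poly. The epithelial label held in both fractions: basal keratin KRT5 was at 132 and 83.9 TPM in mono and at 1504 and 2101 TPM in poly. The blood markers PTPRC and CD3E and the endothelial marker CDH5 were listed at 0 in all 4 libraries, but the 6 blood markers summed to 65.5 and 51.2 TPM in mono and 31.7 and 31.6 TPM in poly. Nearly all of that was the globin gene HBA1, at 64.4 and 50.1 TPM in mono and 28.3 and 27.8 TPM in poly, and CD68 was between 1.05 and 3.58 TPM. Their part in the results was not tested, and 7 fibroblast markers summed to between 0.19 and 3.05 TPM.

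Of 14853 genes tested, 2519 (17.0%) were higher and 2092 (14.1%) were lower in poly by edgeR's quasi-likelihood test with a Benjamini-Hochberg adjusted p under 0.05 and 2 libraries a fraction. A log2 ratio of at least 1 in size was reached by 2507 of the genes called higher and 2060 of those called lower. All values below are relative to the library: levels are CPM, the counts divided by the library's total after TMM scaling and put on a common scale, and a ratio is the level in poly over that in mono on the log2 scale, not a number of molecules per cell. TMM factors were 0.815 and 0.722 in mono and 1.27 and 1.34 in poly. With library totals alone the median of all genes moved from 0.10 to 0.86, and the calls became 4715 higher and 797 lower, so that 85.5% of the calls were higher in place of 54.6%. Of the genes named below by rule, RPL8, RACK1, MRPL12, S100A11, H2AC25, ZNF214, SNHG11, SNHG12, PVT1, BTG1 and EEF1E1 were not called with library totals alone. Genes given below with a ratio alone are not covered by this list. In that fit the lower members fell from 8 to 5 among TOP mRNAs outside the ribosomal proteins. They fell from 3 to 1 among keratins and epidermal proteins and from 7 to 1 among translation initiation factors. The poly libraries decided much of the count: without poly replicate 2 there were 721 genes higher and 588 lower, and without poly replicate 1 there were 1793 and 651. In those fits the remaining poly library is assumed to vary as the mono pair did.

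**Figure D1:**
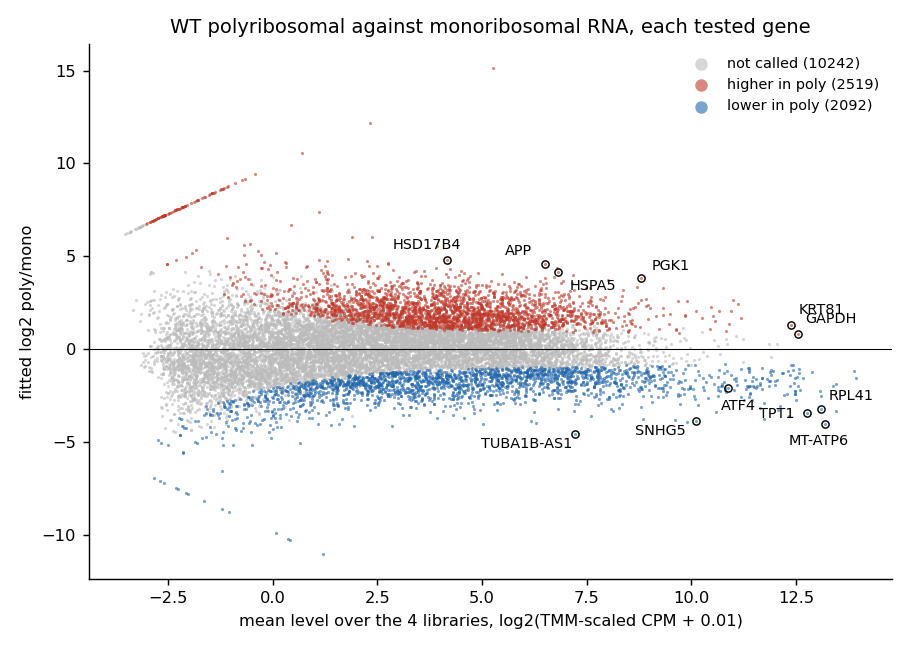
Mean level over the 4 WT libraries (log2 of TMM-scaled CPM plus 0.01) against the fitted log2 poly/mono of each tested gene, with 2519 genes called higher and 2092 called lower in poly. The points along 2 slanted lines at the left are genes at 0 counts in both libraries of one fraction, whose fitted ratio has no defined size. Named genes are circled.

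The start sites of a few genes are shown to make the TOP class visible. These are 30 bases of RefSeq sequence (GRCh38.p14), from 5 bases before the annotated transcription start to 24 bases after it, with the pyrimidine tract in capitals. A tract was taken as a C, within 5 bases of the annotated start, followed on the same strand by at least 4 pyrimidines.
RPL41, chr12:56116628-56116657, plus strand: cctttCTCTCggccttagcgccattttttt
RPS27, chr1:153990757-153990786, plus strand: tcgctCCTTTCCggcggtgacgacctacgc
TPT1, chr13:45341159-45341188, minus strand: tcggcCTTTTCCgcccgctcccccctcccc
RACK1, chr5:181243882-181243911, minus strand: tctctCTCTCTTTCactgcaaggcggcggc
SNHG5, chr6:85678709-85678738, minus strand: tcggtCTTTTacgtcggccttcgcgagcgt
ATF4, chr22:39520554-39520583, plus strand: acggcagccatttctactttgcccgcccac
S100A2, chr1:153565820-153565849, minus strand: gccccagagcaggggttgcctcccctcacc
PGK1, chrX:78104243-78104272, plus strand: gcggtgttccgcattctgcaagcctccgga
GAPDH, chr12:6535259-6535288, plus strand: tccctgtccggatgctgcgcctgcggtaga
HSPA5, chr9:125241319-125241348, minus strand: aggtcgacgccggccaagacagcacagaca
APP, chr21:26171104-26171133, minus strand: gcggggtcggatgattcaagctcacgggga
The first 5 genes were lower in poly and hold the tract. ATF4 and S100A2 were lower in poly and hold none in this window, and the last 4 were higher in poly and hold none.

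The ribosomal protein genes were lower in poly almost as a whole. Of 79 tested, 75 (94.9%) were lower and 0 higher against a background of 14.1% lower, with a median log2 ratio of -1.86 against 0.10 over all genes tested. These proteins are short, with a median of 156 residues. Of all genes of 100 to under 200 residues, ribosomal proteins included, 46.2% were lower, with a median of -1.14. The largest ratio in size was that of RPL41, the shortest ribosomal protein at 25 residues. RPL41 was at 13290 and 18440 CPM in mono and 1603 and 1737 CPM in poly (log2 -3.25 ± 0.24 SE, adjusted p = 0.00395 by edgeR). RPS27, the member with the highest mean TPM, stood at 7166 and 9511 CPM in mono and 1709 and 1435 CPM in poly (log2 -2.41 ± 0.25, adjusted p = 0.00395 by edgeR). RPL8 had the smallest called difference, with 7007 and 7201 CPM in mono and 4089 and 3747 CPM in poly (log2 -0.86 ± 0.20, adjusted p = 0.0166 by edgeR), and it was not called without poly replicate 1 (adjusted p = 0.0705) or poly replicate 2 (adjusted p = 0.149). Its log2 ratio was -0.10 with library totals alone (adjusted p = 0.609 by edgeR). FAU (log2 -0.49), RPL14 (0.03) and RPL3 (0.25) were among the 4 members that were not called. The group stayed lower with library totals alone, with 64 lower, 2 higher and a median of -1.10. Without poly replicate 2, 62 members were lower.

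The other mRNAs of the TOP class, which encode elongation factors, factors that bind nascent chains, initiation factors and other proteins, were divided. Of 16 tested, 8 (50.0%) were lower and 0 higher, against 14.1% and 17.0% of all genes tested, with a median of -1.11. Without poly replicate 1 or poly replicate 2 the count was 5, and with library totals alone it was 5 with a median of -0.30. TPT1, which encodes a small growth-associated protein, was at 9309 and 16290 CPM in mono and 1011 and 1363 CPM in poly (log2 -3.43 ± 0.33, adjusted p = 0.00395 by edgeR). NACA (log2 -2.21), EEF1B2 (-2.02), NAP1L1 (-1.86), EEF1A1 (-1.54), EIF3F (-1.43) and EEF1G (-1.41) were lower too. RACK1, a component of the small ribosomal subunit, was at 6278 and 7578 CPM in mono and 4038 and 3482 CPM in poly (log2 -0.88 ± 0.22, adjusted p = 0.0197 by edgeR), a call that was lost without mono replicate 2 (adjusted p = 0.0619), poly replicate 1 (0.0585) or poly replicate 2 (0.167). The log2 ratio of RACK1 was -0.11 with library totals alone (adjusted p = 0.554 by edgeR). Elongation factor EEF2 (log2 0.25, adjusted p = 0.71 by edgeR) and the poly(A)-binding protein PABPC1 (log2 -0.63, adjusted p = 0.2) were not called.

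Medians were also compared between genes with and without the tract. It was found at the start of 21.1% of the 27305 promoters in the table, and in 51 (81.0%) of 63 ribosomal protein genes with a promoter entry. The 51 with the tract had a median log2 ratio of -1.71, and the 12 without it had -1.96. Among all genes of 100 to under 200 residues outside the ribosomal proteins, the median was -1.11 for 212 genes with the tract and -1.13 for 844 without it. Among genes of 400 to under 800 residues it was 0.49 with and 0.75 without the tract, over 895 and 2892 genes. A tract at an annotated start is a description of letters and not of the cap site used in these cells.

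The ratio followed length across genes. Median log2 poly/mono rose from class to class of protein length, from -1.81 below 100 residues (224 genes) over -1.14 at 100 to under 200 residues (1372 genes), -0.13 at 200 to under 400 (3584 genes), 0.67 at 400 to under 800 (4665 genes) and 1.07 at 800 to under 1600 (2098 genes) to 1.44 at 1600 residues or more (590 genes). Of the shortest class, 171 genes (76.3%) were lower and 1 higher in poly. Of the longest class, 12 (2.03%) were lower and 209 (35.4%) higher. The protein length is that of the longest basic coding sequence of the gene in GENCODE 29, and 12533 tested genes had one. It need not be the coding sequence of the RNA that was counted: the RSEM gene length, an average over isoforms weighted by abundance, was shorter than that coding sequence in 2642 (21.1%) of these genes and in 448 (75.9%) of the 590 genes of 1600 residues or more. Across these genes the rank correlation of ratio and protein length was 0.518, and across all 14853 genes that of ratio and RSEM gene length was 0.532. Genes of one library are not independent replicates, and length also enters read counting, so no p is given.

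**Figure D2:**
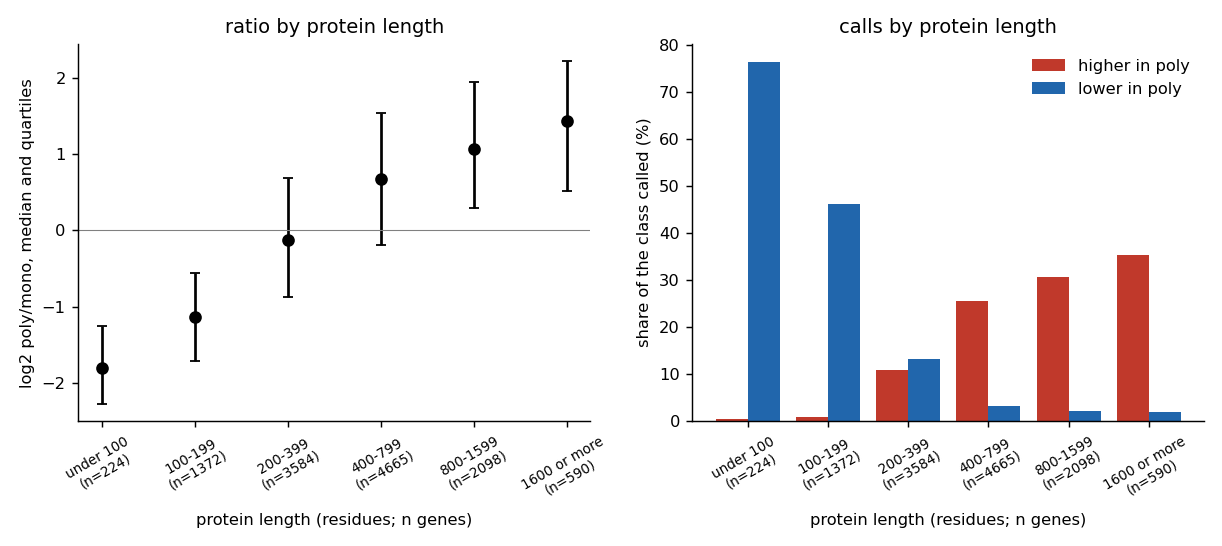
Left, log2 poly/mono by class of protein length, with the median as a point and the quartiles as bars, for 224, 1372, 3584, 4665, 2098 and 590 genes. Right, the share of each class called higher or lower in poly (%). The median crosses 0 between the classes of 200 to under 400 and 400 to under 800 residues.

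The replicates did not match equally well over this range. In the class of 1600 residues or more, the median gene was higher in poly replicate 2 than in poly replicate 1 by 0.77 on the log2 scale, and in mono replicate 2 than in mono replicate 1 by 0.38. Below 100 residues the difference was -0.17 between the poly libraries and 0.32 between the mono libraries. These differences between replicates are smaller than the span between the shortest and the longest class. Their part in the individual calls was not tested. Using the effective length of each gene in each library as an offset gave 1890 genes higher and 1979 lower.

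The small proteins show the lower end of the length range in named genes. Of 50 mRNAs of small cytosolic and secretory-pathway proteins, 0 were higher in poly, and the median was -1.57. Their median length was 98 residues. The lower members numbered 43 (86.0%), against 14.1% of all genes tested and 76.3% of those below 100 residues. That count was 27 without poly replicate 1 and 19 without poly replicate 2, and 26 with library totals alone. TOMM5, a subunit of the outer mitochondrial membrane import pore with 98 residues in its longest coding sequence, was at 675 and 881 CPM in mono and 136 and 137 CPM in poly (log2 -2.51 ± 0.29, adjusted p = 0.00395 by edgeR). S100A2, a calcium-binding protein and the member with the highest mean TPM, was at 18750 and 23420 CPM in mono and 10390 and 8218 CPM in poly (log2 -1.18 ± 0.21, adjusted p = 0.00762 by edgeR). Both groups of libraries were apart for each of these genes. S100A11 stood closest to no difference among the members called (log2 -0.81 ± 0.25, adjusted p = 0.0445 by edgeR) and was not called without mono replicate 2 (0.119), poly replicate 1 (0.134) or poly replicate 2 (0.353). With library totals alone its log2 ratio was -0.04 (adjusted p = 0.891 by edgeR), and with DESeq2's size factors its adjusted p was 0.0522. The actin-binding proteins PFN1 (log2 0.14) and CFL1 (-0.16) and the nuclear protein PTMA (0.25) were not called.

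Very large proteins lay at the other end. Of 72 tested, 34 (47.2%) were higher and 1 (1.39%) lower in poly, with a median of 1.80. Over all genes of 1600 residues or more, 35.4% were higher and 2.03% lower, with a median of 1.44. Over all genes tested the shares were 17.0% and 14.1%. The count of higher members was 11 without poly replicate 2, 55 without mono replicate 2 and 53 with library totals alone. FASN, the fatty acid synthase, was at 153 and 119 CPM in mono and 505 and 714 CPM in poly (log2 2.16 ± 0.32, adjusted p = 0.00471 by edgeR). MYH9, the heavy chain of non-muscle myosin (log2 3.65), PLEC, which links intermediate filaments to junctions (2.82), and the DNA repair kinase PRKDC (2.80) were higher as well. MYCBP2, a ubiquitin ligase of 4640 residues, had 2 counts summed over the mono libraries against 605 over the poly libraries, a library-scaled ratio of 176 with a 95% exact interval of 48.4 to 1450 that covers counting error only. LYST, a vesicle trafficking gene, was the member called lower, with 8.17 and 9.39 CPM in mono and 1.87 and 2.28 CPM in poly (log2 -2.08 ± 0.42, adjusted p = 0.0107 by edgeR). The RSEM gene length was 1311 bases for LYST, 2428 for MYCBP2 and 2349 for FASN. Each was below the length of the gene's longest coding sequence, of 3801, 4640 and 2511 residues. The counted RNA of these genes, called higher or lower, therefore need not encode the large protein. LYST was not called without poly replicate 1 (0.0691) or poly replicate 2 (0.0514).

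The largest ratios among genes with at least 10 TPM in poly belonged to genes of several kinds, among them enzymes, secretory proteins and proteins of the cell surface. HSD17B4, an enzyme of peroxisomal fatty acid oxidation, was at 0.718 and 1.73 CPM in mono and 13.5 and 55.0 CPM in poly (log2 4.82 ± 0.78, adjusted p = 0.006 by edgeR). APP, the amyloid precursor protein, was at 5.01 and 9.68 CPM in mono and 80.1 and 268 CPM in poly (log2 4.57 ± 0.66, adjusted p = 0.00454 by edgeR). EIF3A, the largest subunit of initiation factor eIF3, was at 1.50 and 1.23 CPM in mono and 12.1 and 44.6 CPM in poly (log2 4.38 ± 0.66, adjusted p = 0.00503 by edgeR). In each of these the poly libraries lay above both mono libraries but more than 3-fold apart from each other. The nucleotide and DNA replication genes RRM1 (log2 4.09) and RPA1 (4.08), the mitochondrial chaperone HSPA9 (4.02), the lactate transporter SLC16A1 (3.97) and the membrane repair protein MYOF (3.96) followed. All of these kept their call in every alternative fit.

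Basement membrane, matrix and adhesion mRNAs formed the group with the highest median. Of 42 tested, 37 (88.1%) were higher and 0 lower, against 17.0% and 14.1% of all genes tested, with a median of 2.65. Their median length was 1150 residues. Of all genes of 800 to under 1600 residues, 30.6% were higher, with a median log2 ratio of 1.07. All 42 had both poly libraries above both mono libraries, against 37.7% of all genes tested. Without poly replicate 2, 17 were called. CDH1, the epithelial cadherin, was at 3.82 and 6.21 CPM in mono and 36.3 and 131 CPM in poly (log2 4.06 ± 0.65, adjusted p = 0.00589 by edgeR). ITGB4, the hemidesmosome integrin and the member with the highest mean TPM, was at 164 and 224 CPM in mono and 523 and 580 CPM in poly (log2 1.51 ± 0.30, adjusted p = 0.00963 by edgeR), and was not called without poly replicate 2 (0.0855). The proteoglycan AGRN had the smallest called ratio (log2 1.39 ± 0.33, adjusted p = 0.0179 by edgeR), lost without poly replicate 1 (0.0754) or poly replicate 2 (0.236). COL12A1 had 0 counts in both mono libraries, and its level in poly was at least 6.14-fold above the level that 3 counts in each mono library would give. It was not called without poly replicate 1 (0.0794). Fibronectin FN1 (log2 2.38, adjusted p = 0.09 by edgeR) and tenascin TNC (3.12, adjusted p = 0.1) were not called.

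Chaperones of the cytosol, the endoplasmic reticulum and the mitochondria had a median of 2.55 and a median length of 544 residues, with 0 of 36 lower. The higher members numbered 30 (83.3%), against 17.0% of all genes tested and 25.6% of those of 400 to under 800 residues. Without poly replicate 2 the count was 17. HSPA5, the chaperone of the endoplasmic reticulum, was at 7.90 and 15.8 CPM in mono and 89.4 and 339 CPM in poly (log2 4.18 ± 0.69, adjusted p = 0.00611 by edgeR). The disulfide isomerase PDIA3 (log2 3.87), the lectin chaperones CANX (3.58) and CALR (3.19) and cytosolic HSP90AB1 (3.28) were higher. HSPA8, the constitutive HSP70, had the smallest called ratio, from 458 and 566 CPM in mono to 869 and 1286 CPM in poly (log2 1.07 ± 0.30, adjusted p = 0.0285 by edgeR), and was not called without poly replicate 2 (0.307). DNAJC3 had the largest fitted ratio (log2 4.56 ± 1.30, adjusted p = 0.0322 by edgeR) on fewer than 2 CPM in any library, and it too was not called without poly replicate 2 (0.303). The small chaperones HSPB1 (log2 -0.60, adjusted p = 0.0916 by edgeR) and HSPE1 (-0.66, adjusted p = 0.12) did not pass.

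Glycolytic enzyme mRNAs were higher in poly in 16 of 17 cases, with a median of 1.80, and in 8 without poly replicate 2. In the main fit 94.1% of this group was higher, against 17.0% of all genes tested. PGK1 showed the tightest large difference, at 54.6 and 60.2 CPM in mono and 762 and 889 CPM in poly (log2 3.85 ± 0.30, adjusted p = 0.00395 by edgeR). PKM, which the study also tested for CBFB and hnRNPK binding, was at 795 and 464 CPM in mono and 2621 and 2630 CPM in poly (log2 2.06 ± 0.31, adjusted p = 0.00484 by edgeR). GAPDH, used in many assays as a reference, was at 4266 and 4352 CPM in mono and 7846 and 7337 CPM in poly (log2 0.82 ± 0.20, adjusted p = 0.0187 by edgeR). GAPDH was not called by DESeq2 (adjusted p = 0.0641) or by edgeR without poly replicate 1 (0.0881) or poly replicate 2 (0.0835). TPI1, which interconverts triose phosphates, was not called (log2 -0.26, adjusted p = 0.45 by edgeR).

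**Figure D3:**
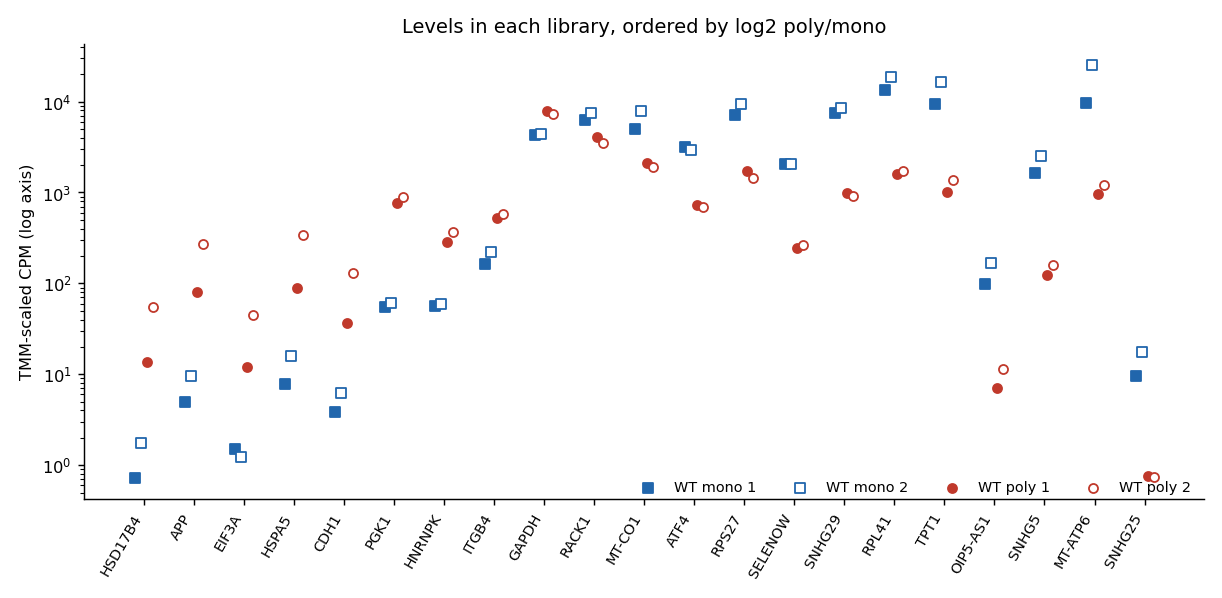
TMM-scaled CPM (log axis) of named genes in each WT library, ordered from left to right by falling log2 poly/mono. Squares are the mono libraries and circles the poly libraries, with replicate 1 filled and replicate 2 open. The poly circles lie above both mono squares from HSD17B4 to GAPDH and below them from RACK1 to SNHG25.

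Of the cytosolic aminoacyl-tRNA synthetases and their partners, which charge tRNAs, 1 of 23 was lower in poly. The group had a median of 1.60 and a median length of 625 residues. The higher members numbered 15 (65.2%), against 17.0% of all genes tested and 25.6% of those of 400 to under 800 residues. Without poly replicate 2 the number was 5. NARS1 was at 1.38 and 2.75 CPM in mono and 18.8 and 47.7 CPM in poly (log2 4.02 ± 0.60, adjusted p = 0.00474 by edgeR). The lower member was EEF1E1, a scaffold protein of 174 residues and no synthetase (log2 -1.71 ± 0.45, adjusted p = 0.0246 by edgeR), a call lost without mono replicate 2 (0.05), poly replicate 1 (0.151) or poly replicate 2 (0.129). QARS1, the member with the highest mean TPM, was at 341 and 186 CPM in mono and 222 and 231 CPM in poly, and the fractions overlapped (log2 -0.22 ± 0.35, adjusted p = 0.659 by edgeR).

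Of 31 proteasome subunits tested, 13 were higher and 0 lower, with a median of 0.87, and 4 were higher without poly replicate 2 and 23 with library totals alone. The 13 called in the main fit made up 41.9% of the group, against 17.0% higher over all genes tested. PSMD1, a large base subunit, was at 1.52 and 5.20 CPM in mono and 20.4 and 74.0 CPM in poly (log2 3.82 ± 0.78, adjusted p = 0.0108 by edgeR). The regulatory subunits PSMD3 (log2 2.50), PSMD2 (2.40), PSMD11 (2.37) and PSMC2 (1.77) were higher, and the core subunits PSMA1 (-0.21), PSMA3 (0.06), PSMB5 (-0.14) and PSMB6 (0.08) were not called. PSMB4 was the one core subunit named here that passed (log2 0.90 ± 0.27, adjusted p = 0.0381 by edgeR), and it did not pass without poly replicate 1 (0.237) or poly replicate 2 (0.269). Whether core and regulatory subunits differ was not tested.

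Of 39 translation initiation factors tested, 10 (25.6%) were higher and 7 (17.9%) lower, near the 17.0% and 14.1% of all genes tested, with a median of 0.09. The numbers were 3 and 1 without poly replicate 2, 7 and 0 without poly replicate 1, 13 and 13 without mono replicate 1, and 20 and 1 with library totals alone. Besides EIF3A, the scaffold EIF4G1 (log2 1.93) and the eIF3 subunits EIF3B (2.33), EIF3C (1.88), EIF3D (1.40) and EIF3I (1.15) were higher. The cap-binding protein EIF4E was lower, at 35.3 and 88.5 CPM in mono and 9.19 and 12.8 CPM in poly (log2 -2.50 ± 0.50, adjusted p = 0.00989 by edgeR), and was not called without poly replicate 1 (0.0587). Its binding partners EIF4EBP1 (log2 -1.50) and EIF4EBP2 (-0.97), of 118 and 120 residues, were lower too. EIF5A, the member with the highest mean TPM, was at 1956 and 1374 CPM in mono and 2434 and 1637 CPM in poly, and was not called (log2 0.29, adjusted p = 0.474 by edgeR). EIF4B, which the study follows, was at 216 and 213 CPM in mono and 119 and 179 CPM in poly (log2 -0.52 ± 0.32, adjusted p = 0.243 by edgeR).

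**Figure D4:**
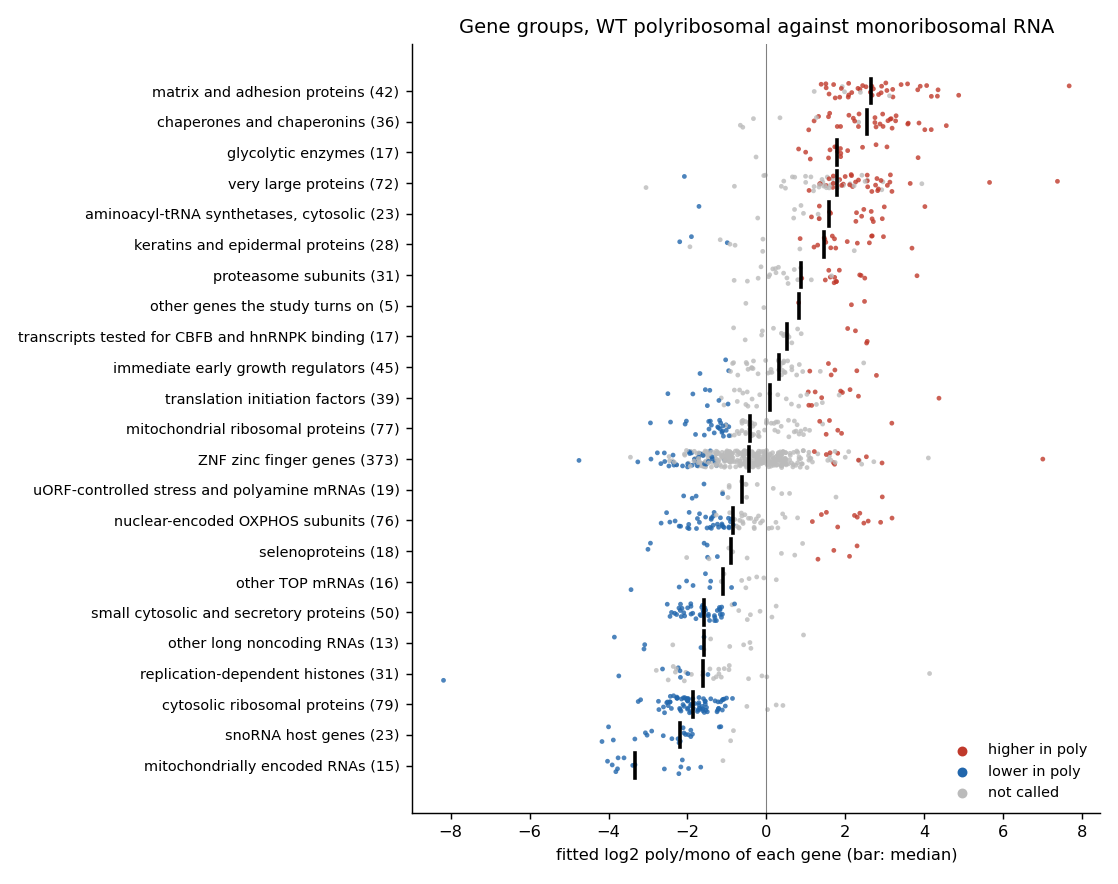
Fitted log2 poly/mono of each tested member of 23 gene groups, with the number of members in parentheses and the median as a black bar. Members called higher are red, members called lower are blue and the rest are grey. Groups run from mitochondrially encoded RNAs at the bottom (median -3.33) to matrix and adhesion proteins at the top (median 2.65), and the largest values of single points include genes at 0 counts in one fraction.

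Mitochondrially encoded RNAs are translated inside mitochondria by mitochondrial ribosomes, so their place in this gradient is no measure of cytosolic ribosome load. Of 15 tested, 14 (93.3%) were lower and 0 higher in poly, against 14.1% and 17.0% of all genes tested. Their median of -3.33 was the lowest of any group. MT-ATP6, a subunit of ATP synthase, was at 9709 and 25470 CPM in mono and 964 and 1195 CPM in poly (log2 -4.03 ± 0.45, adjusted p = 0.00395 by edgeR). MT-CO2 was at 15060 and 25800 CPM in mono and 1934 and 2130 CPM in poly (log2 -3.33 ± 0.29, adjusted p = 0.00395 by edgeR), and MT-CO1 had the smallest called ratio (log2 -1.66 ± 0.27, adjusted p = 0.0061 by edgeR). MT-RNR1 was not called (log2 -1.10, adjusted p = 0.094 by edgeR). Leaving these genes out of the fit gave 2518 genes higher and 2081 lower.

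Nuclear-encoded subunits of the respiratory chain divided by size. Of 76 tested, 36 (47.4%) were lower and 11 (14.5%) higher, against 14.1% and 17.0% of all genes tested, with a median of -0.85. The lower members had a median length of 109.5 residues and the higher members one of 464. The counts were 11 lower and 6 higher without poly replicate 2, 15 lower and 9 higher without poly replicate 1, and 14 lower and 16 higher with library totals alone. ATP5MF, a 98-residue subunit of ATP synthase, was at 1540 and 2100 CPM in mono and 334 and 296 CPM in poly (log2 -2.53 ± 0.28, adjusted p = 0.00395 by edgeR). NDUFC1 of complex I, with 76 residues, was at 362 and 512 CPM in mono and 73.0 and 64.6 CPM in poly (log2 -2.67 ± 0.32, adjusted p = 0.00395 by edgeR). SDHA, the 664-residue flavoprotein of complex II, was at 19.1 and 14.6 CPM in mono and 107 and 200 CPM in poly (log2 3.18 ± 0.42, adjusted p = 0.00424 by edgeR). The catalytic subunit ATP5F1B (log2 2.58), NDUFS1 (2.90) and UQCRC2 (2.37) were also higher. Subunits of the same complex thus lay on both sides of the all-gene median.

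Mitochondrial ribosomal proteins, which are made in the cytosol, were lower in 24 (31.2%) and higher in 6 (7.79%) of 77 cases. The shares over all genes tested were 14.1% and 17.0%. Their median of -0.42 became 0.37 with library totals alone. The group's direction therefore depends on the scaling, and the counts were 5 lower and 23 higher in that fit. Without poly replicate 1 the counts were 5 lower and 6 higher, and without poly replicate 2 they were 4 and 0. Without mono replicate 1 and mono replicate 2, 10 and 12 were higher. MRPL12, at the highest mean TPM, was at 839 and 722 CPM in mono and 307 and 263 CPM in poly (log2 -1.45 ± 0.27, adjusted p = 0.00828 by edgeR) but was not called without poly replicate 1 (0.0512) or poly replicate 2 (0.111). MRPL42 had the lowest called ratio (log2 -2.94 ± 0.48, adjusted p = 0.006 by edgeR), and MRPS31 the highest (log2 3.18 ± 0.65, adjusted p = 0.0108 by edgeR), which was lost without poly replicate 2 (0.0797). Lower members had a median of 143 residues and higher members one of 395.5.

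Noncoding RNAs were low in poly. Of 368 lincRNA genes, 118 (32.1%) were lower and 1 higher, with a median of -1.65. Of 674 antisense genes, 187 (27.7%) were lower and 14 higher, with a median of -1.50, and of 389 processed pseudogenes, 101 (26.0%) were lower and 9 higher, with a median of -1.31. The 12582 protein-coding genes had a median of 0.30, with 1508 (12%) lower and 2455 (19.5%) higher. At an RSEM gene length of 1000 to under 2000 bases the median was -1.52 over 348 noncoding genes and -0.05 over 4626 coding genes. At 500 to under 1000 bases it was -1.79 over 471 noncoding and -1.23 over 1349 coding genes, and at 2000 to under 4000 bases it was -0.84 over 159 and 0.71 over 4761. Below 500 bases the medians were close, -1.82 over 169 noncoding and -1.79 over 99 coding genes. The lincRNA median was -0.88 and the antisense median -0.74 with library totals alone. The counting strand is not given in the sources used here, so reads of an antisense gene and of its partner may be mixed, and pseudogene reads may come from the parent gene.

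The snoRNA host genes, spliced RNAs whose introns hold small nucleolar RNAs, had a median of -2.18 and 0 members higher in poly. Of 23 tested, 21 (91.3%) were lower, against 14.1% of all genes tested. With library totals alone 17 were lower, with a median of -1.41. SNHG5 was at 1646 and 2513 CPM in mono and 124 and 159 CPM in poly (log2 -3.88 ± 0.33, adjusted p = 0.00395 by edgeR). SNHG29 was at 7405 and 8429 CPM in mono and 975 and 915 CPM in poly (log2 -3.07 ± 0.23, adjusted p = 0.00395 by edgeR). GAS5 was at 1990 and 2615 CPM in mono and 385 and 367 CPM in poly (log2 -2.61 ± 0.27, adjusted p = 0.00395 by edgeR). All 23 had both poly libraries below both mono libraries, against 33.3% of all genes tested.

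The other hosts above 10 TPM filled a range of ratios. SNHG25 (log2 -4.17), SNHG19 (-4.0), SNHG6 (-3.33), SNHG9 (-2.39), SNHG16 (-2.24), EPB41L4A-AS1 (-2.21), SNHG1 (-2.18), ZFAS1 (-2.11), SNHG32 (-2.09), DANCR (-2.05), SNHG3 (-1.92), SNHG30 (-1.92), SNHG15 (-1.87), SNHG12 (-1.19) and SNHG11 (-1.15) were lower. SNHG17 (log2 -0.91, adjusted p = 0.0707 by edgeR) and SNHG7 (log2 -0.83, adjusted p = 0.087) were not called. Of these, SNHG3, SNHG11, SNHG12, SNHG15, SNHG30 and EPB41L4A-AS1 lost their call without poly replicate 2, with adjusted p-values of 0.118, 0.36, 0.324, 0.0764, 0.0998 and 0.0511. SNHG11, SNHG12 and SNHG30 also lost it without poly replicate 1 (0.191, 0.217 and 0.0624), and SNHG11 without mono replicate 2 (0.0839). With library totals alone the log2 ratio of SNHG11 was -0.39 (adjusted p = 0.43 by edgeR) and that of SNHG12 was -0.43 (adjusted p = 0.335).

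A list of 13 other long noncoding RNAs mixes RNAs known for nuclear roles with microRNA hosts. It also holds RNAs known from the cytoplasm, such as NORAD and OIP5-AS1. Its median was -1.58, and 0 members were higher. The lower members numbered 5 (38.5%), against 14.1% of all genes tested. The number was 3 without poly replicate 1, without poly replicate 2 or with library totals alone. OIP5-AS1 was at 99.3 and 169 CPM in mono and 7.04 and 11.6 CPM in poly (log2 -3.85 ± 0.45, adjusted p = 0.00395 by edgeR). JPX was at 27.5 and 40.1 CPM in mono and 4.83 and 3.14 CPM in poly (log2 -3.08 ± 0.42, adjusted p = 0.00424 by edgeR). PVT1 was lower as well (log2 -1.58 ± 0.34, adjusted p = 0.0124 by edgeR), but not without poly replicate 1 (0.0983) or poly replicate 2 (0.196). NEAT1 (log2 -3.10) and NORAD (-1.66) were the other 2 called. MIR205HG, the member with the highest mean TPM, was at 214 and 270 CPM in mono and 205 and 164 CPM in poly (log2 -0.39 ± 0.30, adjusted p = 0.35 by edgeR), and MALAT1 was not called (log2 -0.42, adjusted p = 0.71).

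The lowest ratios of any gene with at least 10 TPM in mono were mostly those of noncoding RNAs. TUBA1B-AS1, an RNA antisense to a tubulin gene, had the lowest, at 259 and 313 CPM in mono and 22.2 and 1.75 CPM in poly (log2 -4.57 ± 1.0, adjusted p = 0.0133 by edgeR). Its poly libraries differed by more than 10-fold, and it overlaps a gene with many reads. MIR4458HG, a microRNA host, was at 46.8 and 76.8 CPM in mono and 3.21 and 4.22 CPM in poly (log2 -4.06 ± 0.43, adjusted p = 0.00395 by edgeR). RPL41P2, a pseudogene that may share reads with RPL41, was at 9.77 and 4.80 CPM in mono and 0.296 and 0.534 CPM in poly (log2 -4.14 ± 0.62, adjusted p = 0.00475 by edgeR). The short RNAs U3 (log2 -4.0), RNVU1-24 (-3.91) and P2RX6P (-3.82) had fewer than 2 CPM in every library and were not called without poly replicate 2 (adjusted p = 0.0558, 0.157 and 0.0564 by edgeR). U3 and RNVU1-24 were not called without poly replicate 1 either (0.0964 and 0.166), nor RNVU1-24 without mono replicate 2 (0.127). MT-ATP8 (log2 -3.91) completed these 12 genes.

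Replication-dependent histones, whose mRNAs mostly lack a poly(A) tail, had a median of -1.61 and a median length of 129 residues. Over all genes tested 14.1% were lower, and over those of 100 to under 200 residues 46.2%. Of 31 histones tested, 8 (25.8%) were lower and 0 higher. The count was 13 without mono replicate 1, 5 without poly replicate 1, 4 without poly replicate 2 and 5 with library totals alone. The labels name an mRNA library kit and the study's methods name rRNA removal, so how far such mRNAs were captured is not settled by these sources. H2BC12 was at 124 and 138 CPM in mono and 35.8 and 30.0 CPM in poly (log2 -1.99 ± 0.33, adjusted p = 0.006 by edgeR), not called without poly replicate 2 (0.0902). H2AC25 (log2 -1.48 ± 0.36, adjusted p = 0.0186 by edgeR) was not called without poly replicate 1 (0.0964) or poly replicate 2 (0.228). H3C13 had 0 counts in both poly libraries and was at least 15.2-fold lower in poly, taking 3 counts as the floor in each poly library. It was not called without poly replicate 1 (0.0765) or poly replicate 2 (0.0804).

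Genes named ZNF, most of them zinc finger repressors, did not follow the length order. Of 373 tested, 37 (9.92%) were lower and 10 (2.68%) higher, both below the 14.1% and 17.0% of all genes tested, with a median of -0.45 that became 0.30 with library totals alone. In the class of 400 to under 800 residues, 269 ZNF genes had a median of -0.44 with 6 (2.23%) higher, whereas 4396 other genes had a median of 0.75 with 1189 (27.0%) higher. Both medians carry the same scaling, so their gap does not depend on it. Over the whole list 68 were lower without mono replicate 1, 4 without poly replicate 1 and 5 without poly replicate 2. The higher members numbered 21 without mono replicate 1, 26 without mono replicate 2, 4 without poly replicate 1 and 2 without poly replicate 2. ZNF511, with the highest mean TPM, was at 293 and 258 CPM in mono and 77.7 and 65.5 CPM in poly (log2 -1.94 ± 0.31, adjusted p = 0.00555 by edgeR), not called without poly replicate 2 (0.0731). The extremes of the list, ZNF460 and ZNF214, had at most 0.88 CPM in any library, and neither was called without poly replicate 1 (0.318 and 0.243) or poly replicate 2 (0.245 and 0.08). ZNF460 was not called without mono replicate 1 (0.0648), nor ZNF214 without mono replicate 2 (0.0575).

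mRNAs with upstream reading frames or polyamine control, whose main reading frame is known to be translated conditionally, had a median of -0.63. Of 19 tested, 5 (26.3%) were lower and 1 (5.26%) higher, against 14.1% and 17.0% of all genes tested. With library totals alone the median was 0.10, with 4 lower and 4 higher. ATF4, the transcription factor of the integrated stress response, was at 3173 and 2913 CPM in mono and 725 and 698 CPM in poly (log2 -2.10 ± 0.23, adjusted p = 0.00395 by edgeR), a difference called in every alternative. DDIT3, its target (log2 -1.88), the polyamine enzymes SAT1 (-1.78), SRM (-1.58) and ODC1 (-1.11) were the other members lower in poly. EPRS1, a synthetase, was the higher member (log2 2.94 ± 0.62, adjusted p = 0.0119 by edgeR), not called without poly replicate 2 (0.0688). OAZ1, the antizyme that needs a frameshift, was at 1399 and 1330 CPM in mono and 1094 and 798 CPM in poly (log2 -0.53 ± 0.26, adjusted p = 0.156 by edgeR). Without mono replicate 2, 9 were lower, without poly replicate 1, 2 were, and without poly replicate 2, 1 was.

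Immediate early genes and short-lived growth regulators were mostly not called. Of 45 tested, 6 (13.3%) were higher and 3 (6.67%) lower, against 17.0% and 14.1% of all genes tested, with a median of 0.31. The higher members numbered 3 without poly replicate 1, 2 without poly replicate 2 and 19 with library totals alone, and the lower members numbered 0 in each of these fits and 6 without mono replicate 2. DUSP6, a phosphatase that limits ERK, was at 7.33 and 9.79 CPM in mono and 52.5 and 65.8 CPM in poly (log2 2.79 ± 0.37, adjusted p = 0.00424 by edgeR). DUSP1 was at 953 and 831 CPM in mono and 2122 and 1705 CPM in poly (log2 1.10 ± 0.25, adjusted p = 0.0151 by edgeR), not called without poly replicate 1 (0.123) or poly replicate 2 (0.0593). BTG1, an antiproliferative protein, was lower (log2 -1.68 ± 0.37, adjusted p = 0.0134 by edgeR), not called without poly replicate 1 (0.149) or poly replicate 2 (0.118). CCND1 (log2 2.29) and FOSL2 (1.57) were higher.

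Keratins and epidermal proteins were higher in 17 and lower in 3 of 28 cases, with a median of 1.47, and without poly replicate 2 in 9 and 0. The main fit called 60.7% of this group higher and 10.7% lower, against 17.0% and 14.1% of all genes tested. KRT81 had the highest mean TPM, at 3473 and 2684 CPM in mono and 8154 and 7018 CPM in poly (log2 1.30 ± 0.23, adjusted p = 0.0071 by edgeR), and its reads may be split with the near-identical KRT86. KRT14 (log2 2.97), KRT5 (2.67), KRT6A (2.61) and KRT17 (1.51) were higher. IVL was the highest member by ratio (log2 3.69 ± 0.92, adjusted p = 0.0202 by edgeR) at under 3 CPM, and was not called without poly replicate 2 (0.206). The lower members were the small cornified envelope proteins SPRR1B, at 158 and 195 CPM in mono and 39.6 and 37.5 CPM in poly (log2 -2.20 ± 0.32, adjusted p = 0.00466 by edgeR), and SPRR1A (log2 -1.90), and the protease inhibitor SLPI (-0.99). SPRR1B was not called without poly replicate 2 (0.0523), and without poly replicate 1 the number of lower members was 1.

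Selenoproteins were lower in 6 (33.3%) and higher in 4 (22.2%) of 18 cases, against 14.1% and 17.0% of all genes tested, with a median of -0.90. Lower members had a median of 155 residues and higher members one of 586.5. SELENOW was at 2044 and 2047 CPM in mono and 248 and 264 CPM in poly (log2 -3.0 ± 0.25, adjusted p = 0.00395 by edgeR), and the peroxidases GPX1 (-1.49) and GPX4 (-1.24) were lower. TXNRD1, the thioredoxin reductase (log2 2.11), and SELENOI (log2 2.30 ± 0.71, adjusted p = 0.0409 by edgeR) were higher, SELENOI not without poly replicate 2 (0.0824). The lower and higher counts were 10 and 5 without mono replicate 1, 3 and 2 without poly replicate 1, and 2 and 0 without poly replicate 2. With library totals alone they were 3 and 7, with a median of -0.14, so the balance of calls depends on the scaling.

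The study tested 17 transcripts for binding by CBFB and hnRNPK, a choice made in these cells. Of these, 4 (23.5%) were higher and 0 lower in WT poly, near the 17.0% of all genes tested that were higher, with a median of 0.53, and without mono replicate 1 or with library totals alone 8 were higher. RUNX1, the transcription factor at the centre of the study, was at 12.2 and 10.9 CPM in mono and 10.0 and 11.3 CPM in poly (log2 -0.12 ± 0.36, adjusted p = 0.817 by edgeR), and the fractions overlapped. The 4 called were PKM, the histone methyltransferase KMT2D (log2 2.56 ± 0.44, adjusted p = 0.00686 by edgeR), the microRNA processing enzyme DROSHA (log2 2.54 ± 0.69, adjusted p = 0.0267 by edgeR) and SUFU of the Hedgehog pathway (log2 2.26 ± 0.40, adjusted p = 0.0073 by edgeR). DROSHA was not called without poly replicate 2 (0.103). The remaining 13 lay between -0.83 for FOSL1 and 0.88 for TGFB1, among them KDM6B at -0.54, SETD1B at -0.10, SETD1A at 0.18, TCF7 at 0.38, GATA3 at 0.44, RELA at 0.46, KMT2B at 0.53, GSK3A at 0.65 and NUMBL at 0.79. SETD1B, of 1966 residues, was among the genes not called.

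Of the other genes the study turns on, HNRNPK was at 56.7 and 59.5 CPM in mono and 283 and 368 CPM in poly (log2 2.49 ± 0.32, adjusted p = 0.00424 by edgeR). NOTCH3 was at 20.9 and 15.0 CPM in mono and 71.4 and 88.7 CPM in poly (log2 2.16 ± 0.36, adjusted p = 0.00627 by edgeR). CBFB itself was at 9.61 and 7.68 CPM in mono and 7.36 and 9.19 CPM in poly, with overlapping fractions (log2 -0.06 ± 0.38, adjusted p = 0.91 by edgeR).

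The same contrast in CBFB_KO cells served as a second set of libraries. CBFB stood at 1.36 to 5.94 TPM in the WT mono and poly libraries and at 0.56 to 2.04 TPM in those of CBFB_KO. In CBFB_KO, 27.3% of 14643 genes were higher and 24.5% lower in poly. The 2 CBFB_KO poly libraries differed by a mean chi-square of 2.23 per gene, against 128 for the WT poly pair and 266 for the WT mono pair, where sampling alone gives about 1, so the CBFB_KO calls rest on a poly pair that may not be independent. Over 14199 genes tested in both genotypes, the log2 ratios correlated at Pearson 0.859 and Spearman 0.915 across genes, which are not independent replicates. Of 2494 genes higher in WT, 2222 (89.1%) were higher in CBFB_KO, which is 56.1% of the genes higher there. Of 2050 lower in WT, 1949 (95.1%) were lower in CBFB_KO, 56.2% of its list, and 0 genes were called in opposite directions.

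**Figure D5:**
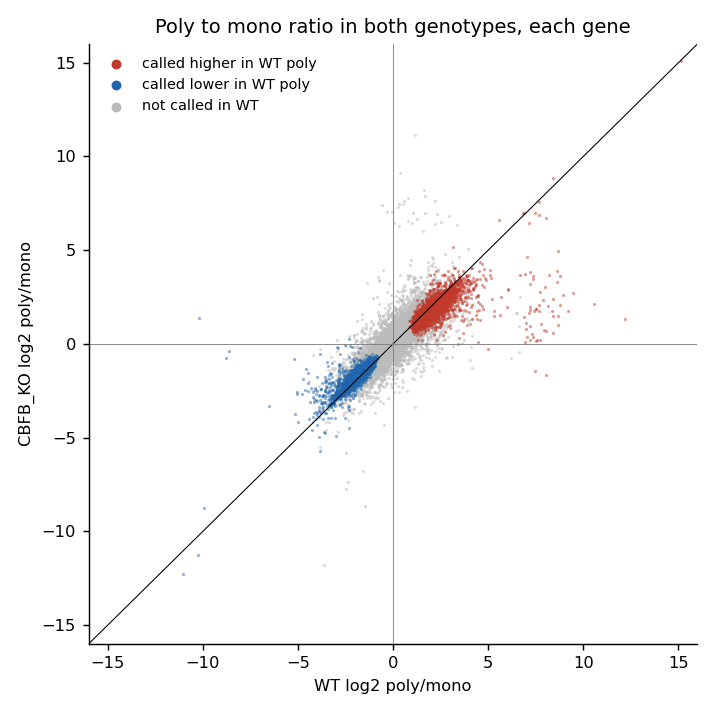
Log2 poly/mono in WT (horizontal) and CBFB_KO (vertical) for 14199 genes tested in both, with the line of equal ratios. Red and blue points are the genes called higher and lower in WT. Points far to the right or left have 0 counts in one WT fraction, except MYCBP2 with 2 counts in mono.

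Group medians in CBFB_KO followed those in WT. They were -1.59 for ribosomal proteins, -2.96 for mitochondrially encoded RNAs, -1.90 for snoRNA hosts, 1.60 for glycolytic enzymes, 2.27 for chaperones and 2.02 for matrix and adhesion proteins. Among single genes, RPL41 had a log2 ratio of -2.89, TPT1 of -3.18, ATF4 of -1.97, PGK1 of 3.19 and HSPA5 of 3.52 in CBFB_KO. A fit over all 8 mono and poly libraries with an interaction term called 0 of 15584 genes different between the genotypes by edgeR, with 291 (1.87%) at an unadjusted p under 0.05 and a smallest adjusted p of 0.396. DESeq2 called 4. For RUNX1 the log2 ratio in CBFB_KO was 0.02 and the interaction was 0.14 ± 0.35 (adjusted p = 1.0 by edgeR). The interaction of TUBA1B-AS1, whose CBFB_KO ratio was -1.33, was not called either. A p that misses the threshold in 2 libraries a group does not show equal ratios.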

How the data were processed

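RNA of sucrose gradient fractions was isolated with Trizol. The labels name an mRNA library kit, whereas the study's methods name rRNA removal for RNA-seq, so whether poly(A) RNA was selected is not settled by the sources used here. Per the submitters' processing notes the reads were handled with Trimmomatic, STAR, RSEM and hg19, whose versions are not given in the sources used here. The deposited files hold, for each of 56632 genes, the expected counts that RSEM estimated for the authors, which need not be whole. The authors' TPM and FPKM values, also written by RSEM, scale those counts by effective length and library size. TPM served for markers and for the level limit of naming, and FPKM was not used. Strand and replicate origin of the counting are not given in the sources used here.

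Expected counts were rounded to whole numbers, filtered with filterByExpr, scaled by TMM and tested with edgeR 4.0.16 (glmQLFit and glmQLFTest, R 4.3.3, limma 3.58.1), 4 WT libraries in the fit and no covariate, two-sided, with Benjamini-Hochberg adjustment over 14853 genes and a threshold of 0.05. The CBFB_KO contrast and the interaction used the same test. DESeq2 1.42.0 was an alternative. Tables and figures were made with Python 3.11.15, numpy 2.4.6, pandas 2.3.3 and matplotlib 3.10.9. Scripts were tested on simulated data.

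The identifier table named 49995 genes (11103 of them by an identifier only), transcripts named 683 more, 819 second identifiers of a gene were left without a symbol, and 5135 had no entry. Protein length is the longest basic coding sequence in GENCODE 29, taken because RefSeq proteins were not used here. Start sequences are from RefSeq.

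Gene groups and members were chosen with earlier results of these data known. Named genes are the 12 called genes with the largest and the 12 with the smallest ratio at a mean of at least 10 TPM in the higher fraction with TPM that did not overlap, in each group the called extremes and the member with the highest mean TPM, every gene of the lists taken from the study, and noncoding members of at least 10 TPM. A few genes that this rule names are not reported here. Other genes given with a ratio alone are group members picked after their values were seen, as examples. Bounds against a group at 0 take 3 counts in each library as the floor, and intervals and floors cover counting error only.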

Additional observations from a re-analysis of the deposited data

How the results depend on the processing

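Main counts were 2519 genes higher and 2092 lower in poly. With library totals without TMM factors they were 4715 and 797, and with all 6 WT libraries in the fit 1275 and 1360. DESeq2 in place of edgeR, DESeq2's size factors, an effective-length offset, the mitochondrial genes left out, no filter, a mean of at least 50 counts and all 12 libraries kept both counts within 1.5 times. Leaving out 1 library at a time gave 721 to 3668 genes higher and 588 to 2945 lower, the low ends without poly replicate 2. The rank correlation of gene length and ratio was 0.532, 0.352 with no filter on low counts, and 0.462 to 0.558 with 1 library left out. The interaction of genotype and fraction called 0 genes in the main fit of edgeR, 4 with DESeq2 and 22 with no filter on low counts. The cause of these changes was not tested.

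With the replicate number as a block, 4034 genes were higher and 2905 lower. The replicates' deviations from their group means correlated at 0.395 between mono and poly, with 2 pairs only, and no label says that a number marks a shared gradient, so the samples may share only a number. Among 115 named genes the block left 110 on their side of the threshold and brought 5 past it.

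Of 93 named genes that were called, 53 were called in every alternative, and 0 of the named ratios changed sign as a call. Without poly replicate 2, 36 named genes lost their call, and without poly replicate 1, 23 did. With 6 WT libraries in the fit 22 lost it, with all 12 libraries 23, and with library totals alone 11. With 2 libraries a fraction and replicates that differed by an SD of 0.717 (mono) and 0.527 (poly) on the log2 scale across genes, small ratios were not detectable. The poly to mono ratio is relative to each library, and changes in the amount of RNA per fraction were not measured.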

Other observations

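Genes called against the order of protein length are given here as values, chosen after those values were seen. Below 200 residues, 13 genes were higher in poly. EMP1, a membrane protein of epithelia, was at 45.0 and 23.6 CPM in mono and 146 and 151 CPM in poly (log2 2.11 ± 0.40, adjusted p = 0.00831 by edgeR). PERP, a desmosome-associated membrane protein, was at 55.1 and 82.3 CPM in mono and 207 and 258 CPM in poly (log2 1.76 ± 0.34, adjusted p = 0.00927 by edgeR). PRDX1, a peroxidase, was at 478 and 571 CPM in mono and 1167 and 937 CPM in poly (log2 1.0 ± 0.27, adjusted p = 0.0254 by edgeR). SAA1 and SAA2, near-identical genes of serum amyloid A whose reads may be split, had log2 ratios of 0.99 and 1.41. With all 6 WT libraries in the fit PRDX1, SAA1 and SAA2 were not called (adjusted p = 0.116, 0.14 and 0.077 by edgeR). EMP1 and PERP kept their call in that fit. SAA1 was also not called with DESeq2's size factors (adjusted p = 0.067 by edgeR). Without poly replicate 1 and poly replicate 2 the log2 ratio was 0.87 and 1.18 for PRDX1 and 1.94 and 1.62 for PERP.

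By their longest coding sequence, 12 genes of 1600 residues or more were lower in poly. In all 12 of them the RSEM gene length was shorter than that coding sequence, against 448 (75.9%) of the 590 genes of this class. It was shorter too in 153 (73.2%) of the 209 genes of this class called higher. In each such gene the counted RNA need not encode the long protein. CAMTA1, a transcription activator with an RSEM gene length of 642 bases, was at 132 and 162 CPM in mono and 32.3 and 27.0 CPM in poly (log2 -2.31 ± 0.33, adjusted p = 0.00454 by edgeR). Its log2 ratio was -2.41 without poly replicate 1 and -2.16 without poly replicate 2. CHD2, a chromatin remodeller with an RSEM gene length of 1069 bases, was at 97.1 and 149 CPM in mono and 23.1 and 28.2 CPM in poly (log2 -2.26 ± 0.37, adjusted p = 0.006 by edgeR). NACA has an RSEM gene length of 704 bases.

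Of the noncoding genes, 16 of the lincRNA, antisense and processed transcript types were higher in poly. They made up 0.272%, 2.08% and 0.741% of these types in turn, against 17.0% higher over all genes tested. Among them were VASH1-AS1 (log2 2.01), RCC2-AS1 (2.42) and SREBF2-AS1 (2.86). SREBF2-AS1 had 18 counts summed over the mono libraries. With all 6 WT libraries in the fit VASH1-AS1 was not called (adjusted p = 0.0905 by edgeR), whereas RCC2-AS1 and SREBF2-AS1 were. Reads of these and of overlapping genes may be mixed, since the counting strand is not given in the sources used here.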
